A study of Mus musculus with 9 samples.

Results

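The 41 genes described here encode the machinery that builds and gates the primary cilium, and were picked by symbol from the 55286 genes of the deposited tables. They fall into 6 roles: 11 subunits of the intraflagellar transport complex IFT-B, 3 subunits of IFT-A, 8 genes of the BBSome and its chaperonins, 12 transition zone genes, 5 genes of the transport motors, and the pair Arl13b and Ofd1 of the ciliary membrane and the centriole. All 41 were found and all 41 passed the filter on low counts. The RNA came from wild-type mouse embryonic lung (E11.5) in 3 groups of 3 libraries. EPZ5676 explants were lungs kept in culture for 72 h with EPZ5676, an inhibitor of the histone H3 lysine 79 methyltransferase DOT1L. Control explants were kept in culture for the same 72 h without it, and the E11.5 group was lung taken without culture. The labels give neither the dose of EPZ5676 nor whether replicates came from separate embryos or cultures, so p-values measure only the spread between these samples, which may be partly technical. Libraries of each group differed in the X-linked Xist and the Y-linked Ddx3y, given below, so they were not all repeats of the same sample. The samples were bulk lung, in which fewer cells of a type and less RNA per cell cannot be told apart.

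The primary cilium is a single antenna that most cells of the embryo can form from a centriole when they are not dividing. Its parts are carried to the tip by IFT-B with the kinesin-2 motor and carried back by IFT-A with the dynein-2 motor, while the BBSome moves membrane proteins and the transition zone decides what enters. Hedgehog signalling in vertebrates runs through this organelle, and in the developing lung the epithelium sends a hedgehog ligand to the mesenchyme. Multiciliated cells of the airway, which appear later in development, use much of the same transport machinery for their motile cilia.

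RFX transcription factors bind a motif called the X-box in the promoters of many ciliary genes, and 2 spellings of it and a shorter motif were searched on both strands in RefSeq promoters (GRCm38.p6, 250 bases before to 50 bases after the start). An entry was found for 36 of the 41 genes. The longer spelling, GTTNCC and GNAAC with 3 bases of any kind between them, was present in 4 of the 36 (11.1%), against 0.936% of 27025 genes with a promoter entry, and the same with 2 bases between in 2 (5.56%), against 0.777%. The shorter GTTGCCA was present in 8 (22.2%), against 5.02% of those genes, and in Mks1 and Tctn3 it lies inside the longer match. The following 30-base stretches, 5′ to 3′ on the strand of the gene, show each X-box match in capitals, so that the spellings can be compared between roles.
Ift57, an IFT-B subunit (chr16:49699226-49699255, plus strand): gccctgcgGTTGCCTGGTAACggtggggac
Bbs7, a BBSome subunit (chr3:36613489-36613518, minus strand): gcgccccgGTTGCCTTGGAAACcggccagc
Tctn3, a transition zone tectonic (chr19:40612350-40612379, minus strand): tcccagcgGTTGCCAGGTAACgggaaccac
Tctn1, a transition zone tectonic (chr5:122264411-122264440, minus strand): gcgctaggctgtgactGTTGCCCGGGCAAC
Mks1, a transition zone protein (chr11:87853183-87853212, plus strand): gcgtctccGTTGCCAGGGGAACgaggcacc
Ahi1, a transition zone protein (chr10:20952560-20952589, plus strand): tagtctgaGTTACCTAGGCAACagcggcag

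Tctn2, Dync2h1, Bbs1 and Ift88 have only the shorter motif and return among the results, so their stretches follow with that motif, or its reverse complement TGGCAAC, in capitals. A match describes letters only, and binding was not measured. The Dync2h1 stretch lies at a RefSeq start inside the gene as annotated by GENCODE M21, which begins at 7184446 on the minus strand.
Tctn2 (chr5:124598751-124598780, plus strand): attgattggtgGTTGCCAtggctgcaggca
Dync2h1 (chr9:7177009-7177038, minus strand): catagcgacggagctTGGCAACtgctgagt
Bbs1 (chr19:4906608-4906637, minus strand): tggctgagctgGTTGCCAaggcgacgcctg
Ift88 (chr14:57424080-57424109, plus strand): ggagtcgcgccTGGCAACggctgggcgtcc

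The 250 bases before the RefSeq start of Ift57 (chr16:49699044-49699293, plus strand) show how close the motif sits to that start, with its first base at -60. The GENCODE M21 annotation begins the gene earlier, at 49699233, so that by it the motif lies within the gene.
Ift57 upstream: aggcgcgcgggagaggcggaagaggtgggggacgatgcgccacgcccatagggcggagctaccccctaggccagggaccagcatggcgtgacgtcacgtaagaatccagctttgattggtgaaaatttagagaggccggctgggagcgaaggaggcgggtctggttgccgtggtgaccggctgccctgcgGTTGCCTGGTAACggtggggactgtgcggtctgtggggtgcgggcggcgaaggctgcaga

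Libraries held 6509563 to 9861452 expected counts, and the lung epithelial regulator Nkx2-1 was present in all 9, at 84.0 to 96.6 TPM in EPZ5676 explants, 71.7 to 78.2 TPM in control explants and 30.1 to 38.7 TPM in E11.5 lung. TPM, the relative abundance of transcripts, is scaled by transcript length and allows levels of different genes to be compared. RNA of cell type markers differed with culture. Summed erythroid markers were 75.2 to 1062 TPM in EPZ5676 explants, 113 to 1204 TPM in control explants and 18130 to 25029 TPM in E11.5 lung. Epithelial markers summed to 884 to 1221 TPM in EPZ5676 explants, 592 to 943 TPM in control explants and 303 to 315 TPM in E11.5 lung. Macrophage markers summed to 817 to 929 TPM in EPZ5676 explants, 573 to 686 TPM in control explants and 32.1 to 54.2 TPM in E11.5 lung. Xist, expressed from the inactive X chromosome of female cells, was 0.58, 210 and 0.77 TPM in EPZ5676 explants, 281, 278 and 0.25 TPM in control explants, and 284, 143 and 72.5 TPM in E11.5 lung. Its level thus varied within each group, by a smaller fold in E11.5 lung than in explants. Ddx3y, a gene of the Y chromosome, was 55.7, 0.44 and 49.9 TPM in EPZ5676 explants. In control explants it was 0, 0.08 and 45.35 TPM, and in E11.5 lung 0, 20.0 and 30.2 TPM. E11.5 2 and E11.5 3 thus held both RNAs at levels that no explant library did. Control 1 stood apart in genes of other organs: summed liver markers were 1.32 to 1.58 TPM in EPZ5676 explants, 216, 1.92 and 2.35 TPM in control explants and 4.35 to 24.3 TPM in E11.5 lung, and Control 3 in neural markers, at 36.9 to 42.3 TPM in EPZ5676 explants, 55.7, 33.7 and 132 TPM in control explants and 23.6 to 41.1 TPM in E11.5 lung. Their part in the results was not tested, and values without these libraries are given where they differ.

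All 41 cilium genes were expressed in every library, with 24 to 1047 counts each and none at 0. Of the 41, 9 share exon bases with another gene, so that some of their reads may belong to it: Ift57, Ift88, Bbs4, Bbs12, Tctn1, Tmem67, Tmem216, Cep290 and Ofd1. Ift46, an IFT-B subunit, stood highest at 118 ± 20.7 TPM in EPZ5676 explants, 114 ± 16.1 TPM in control explants and 107 ± 11.1 TPM in E11.5 lung (SD, n = 3 each). Ift20, the IFT-B subunit that also sits at the Golgi, averaged 60.6 ± 5.71, 58.7 ± 11.9 and 46.1 ± 4.56 TPM in EPZ5676 explants, control explants and E11.5 lung, and Ift43 of IFT-A came next at a mean of 46.1 TPM over all 9 libraries. Their neighbours in the order, Ift74 at 41.2 TPM and the kinesin accessory subunit Kifap3 at 39.8 TPM, lay within the range of Ift43 over the 9 libraries, 37.3 to 55.8 TPM.

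At the low end stood Nphp4, a transition zone nephrocystin, at a mean of 2.77 TPM, below Bbs10, a chaperonin-like protein, at 4.36 TPM and Bbs1 at 6.82 TPM. IFT-B and motor genes filled most of the upper ranks, and BBS and transition zone genes most of the lower ones. Within genes the groups were close. The highest group mean was over 1.5 times the lowest for 6 of the 41 genes, over 2 times for 0, and 1.68 times at most, in Bbs1.

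**Figure D1:**
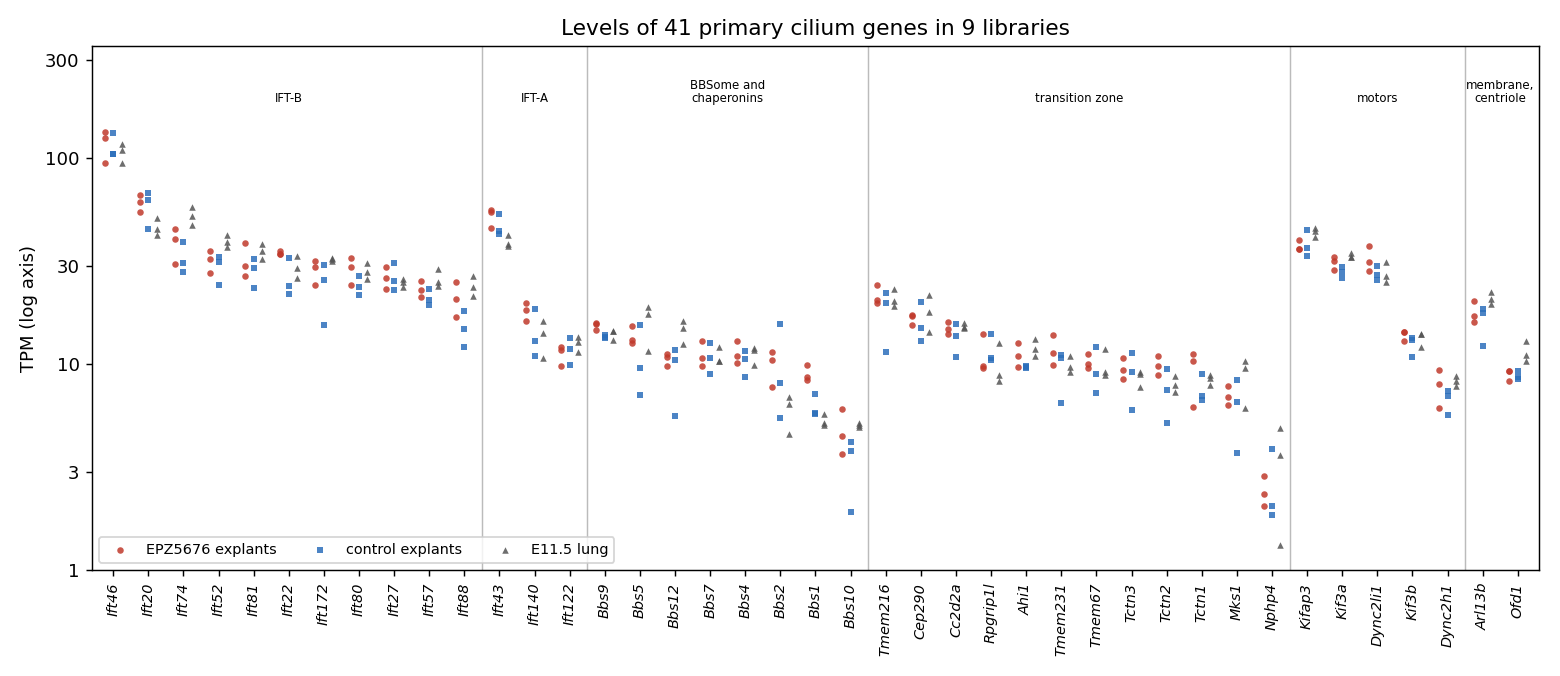
Level of each of the 41 cilium genes in TPM on a log axis, ordered by role, with 1 point for each of the 3 libraries of EPZ5676 explants, control explants and E11.5 lung. Genes differ from each other far more than the groups do within a gene, from about 113 TPM for Ift46 to 2.77 TPM for Nphp4.

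Whether cilium genes moved when DOT1L was inhibited was read from EPZ5676 against control explants. None of the 41 passed the test (edgeR quasi-likelihood, Benjamini-Hochberg adjusted over 15158 genes, threshold 0.05), as none of all genes did (0%). Of the 41, 3 (7.32%) had an unadjusted p under 0.05 and were higher, against 4.14% of all genes, and 0 were lower, against 2.8%. DESeq2 called 0 of the 41 and 83 of all 15158 genes, and limma called 0 of either. The changes were small and mostly on the same side: 36 of 41 log2 fold changes (87.8%) were above 0, against 49.2% of all genes, and 5 were below 0, against 50.8%, with a median of 0.18, against -0.0038 over all genes, and a range of -0.05 to 0.50. These genes were measured in the same 6 libraries and are not independent of each other.

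**Figure D2:**
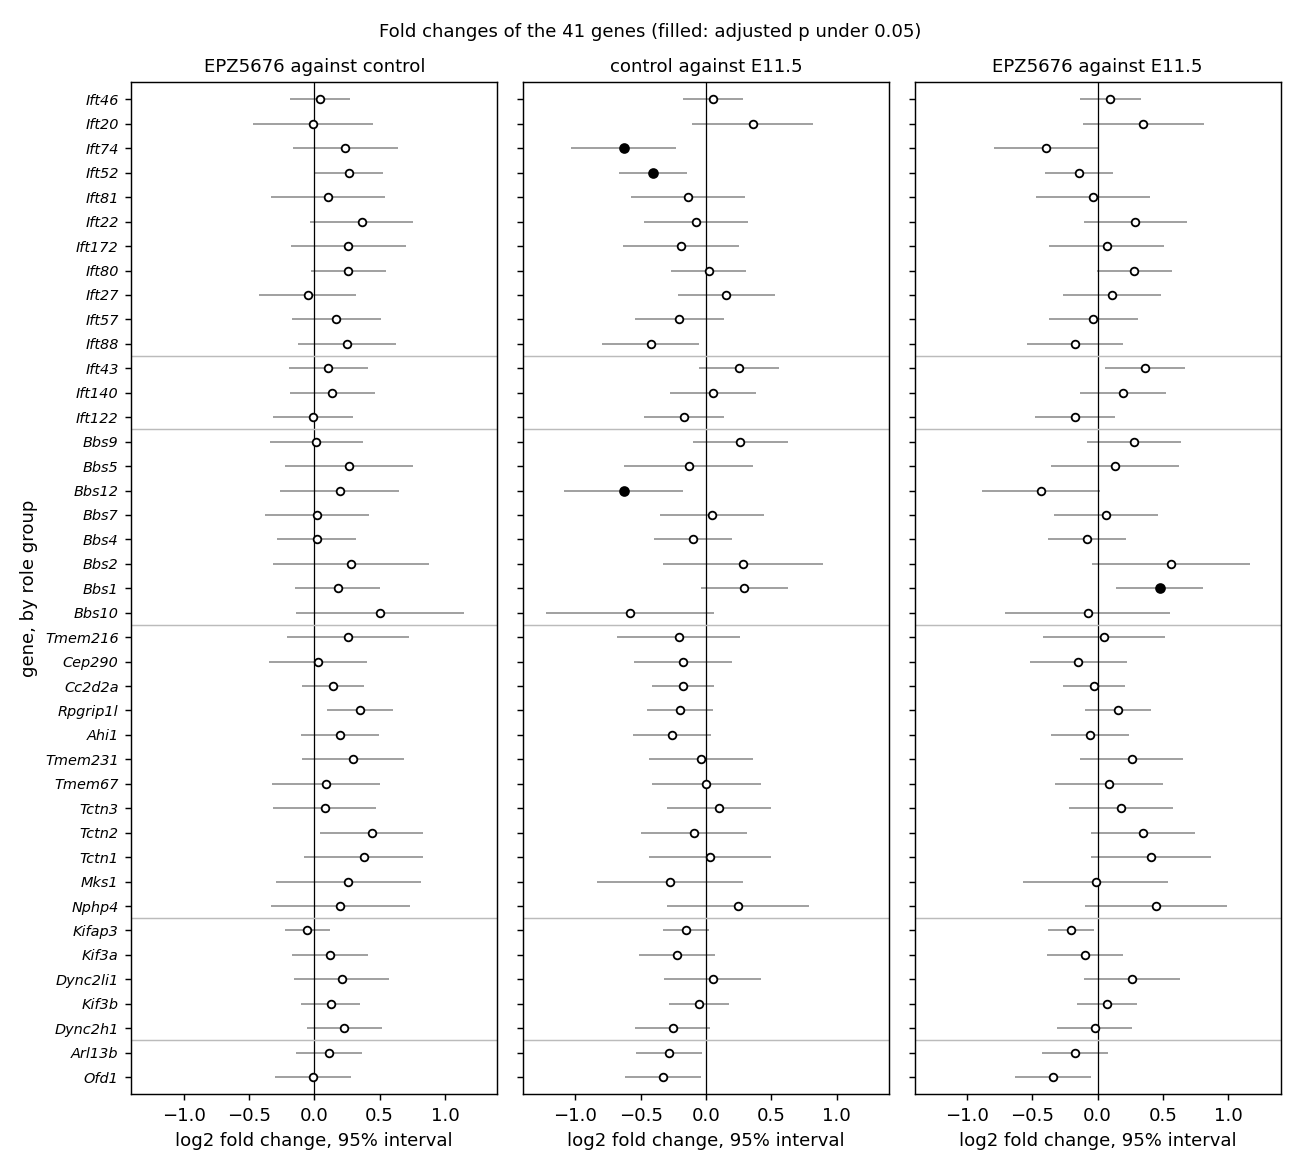
Log2 fold change of each cilium gene with its 95% interval, in the panels EPZ5676 against control, control against E11.5 and EPZ5676 against E11.5, with genes grouped by role. In the first panel 36 of 41 points lie above 0 and no gene passes the adjusted threshold, whereas the calls in the other panels are Ift74, Ift52 and Bbs12 below 0 and Bbs1 above 0.

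Summarised per library, the mean log2 CPM of the 41 genes was 4.64, 4.75 and 4.85 in EPZ5676 explants and 4.50, 4.71 and 4.50 in control explants. CPM relates the counts of a gene to the TMM-scaled library total and is the scale on which the test is made. The lowest EPZ5676 library thus lay below the highest control library, and the groups overlapped. The summed TPM of the 41 genes was 877, 861 and 946 in EPZ5676 explants against 842, 860 and 710 in control explants. On this scale the groups met without overlap, and Control 3 was the low library. The median log2 fold change was 0.18 without Control 3, with 36 genes above 0, 0.11 without Control 1, with 31 above 0, and 0.10 without EPZ5676 3, with 34 above 0.

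**Figure D3:**
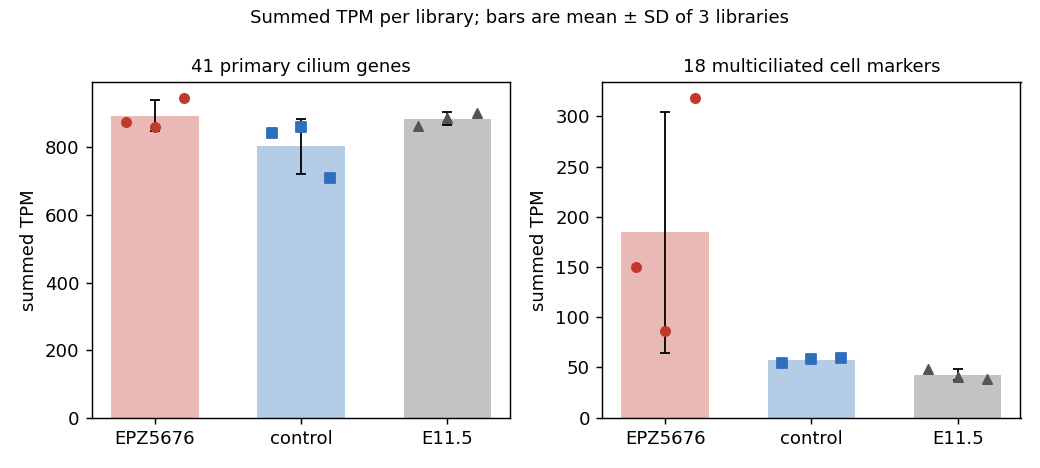
Summed TPM per library of the 41 cilium genes beside that of the multiciliated cell markers, for EPZ5676 explants, control explants and E11.5 lung. The cilium genes span 710 to 946 TPM over all 9 libraries, whereas the multiciliated markers reach 318 TPM in an EPZ5676 library and stay below 60 TPM in every control and E11.5 library.

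Among IFT-B subunits, 9 of 11 lay above control, with a median log2 fold change of 0.24. Ift52, a scaffold of the IFT-B core, had 39.9, 40.1 and 43.6 CPM in EPZ5676 explants against 37.7, 36.1 and 28.9 CPM in control explants. All 3 EPZ5676 libraries were above all 3 controls, with Control 3 the lowest, and the log2 fold change was 0.26 ± 0.12 (SE; unadjusted p = 0.0492, edgeR adjusted p = 0.717). It was 0.16 without Control 3 and 0.11 with limma on log2(TPM + 1), and in TPM its groups overlapped. Ift22, a small GTPase of the complex, had 19.4, 15.4 and 22.9 CPM in EPZ5676 explants against 16.4, 14.2 and 14.1 CPM in control explants, and Ift80 had 58.8, 81.3 and 77.6 CPM against 53.5, 66.6 and 61.8 CPM. In both genes 1 EPZ5676 library fell among the controls, and the log2 fold changes were 0.36 ± 0.18 for Ift22 and 0.26 ± 0.13 for Ift80. Ift20 was at -0.01.

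All 12 transition zone genes lay above control in the fit to counts, with a median of 0.23, but Rpgrip1l and Nphp4 lay below it with limma on log2(TPM + 1). Rpgrip1l, a scaffold of the transition zone (chr8:91217030-91313262), had the smallest p of the 41. It had 41.7, 45.6 and 43.8 CPM in EPZ5676 explants against 33.6, 38.5 and 30.5 CPM in control explants, with no overlap, and a log2 fold change of 0.35 ± 0.11 (unadjusted p = 0.0108, edgeR adjusted p = 0.519). In TPM the same gene had 9.76, 14.1 and 9.62 in EPZ5676 explants against 14.1, 10.8 and 10.5 in control explants, which overlap, and limma on log2(TPM + 1) gave -0.08. Nphp4 was at 0.20 from counts and at -0.04 from TPM, so that the sign of both genes depends on the scale.

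The tectonic Tctn2, whose protein belongs to the transition zone membrane complex, had 15.9, 16.0 and 17.2 CPM in EPZ5676 explants against 14.0, 13.1 and 8.90 CPM in control explants. The EPZ5676 libraries were tight and all above the controls, of which Control 3 was far lowest, and the log2 fold change was 0.44 ± 0.18 (unadjusted p = 0.0337, edgeR adjusted p = 0.676). It was 0.27 without Control 3. Its relative Tctn1 had 26.1, 15.0 and 28.0 CPM in EPZ5676 explants against 18.6, 18.3 and 16.2 CPM in control explants, so that EPZ5676 2 was below every control library. Tctn1 shares exon bases with Gm15481 and Hvcn1. On CPM, Ift52, Rpgrip1l and Tctn2 were the 3 genes without overlap, or 7.32%, against 5.79% of all genes, and 0 lay wholly below control, against 4.45%. On TPM these 3 overlapped, and Ift22, Bbs1 and Bbs9 were the 3 without overlap.

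All 8 BBS genes lay above control, with a median of 0.19, 4 of 5 motor genes, with a median of 0.13, and 2 of 3 IFT-A genes, with a median of 0.11. Bbs10 had the largest log2 fold change, 0.50 ± 0.29, from 5.90, 11.0 and 7.72 CPM in EPZ5676 explants against 5.88, 7.55 and 3.82 CPM in control explants. Its libraries overlapped, and its 95% interval reached 1.14. Dync2h1, the heavy chain of the dynein-2 motor, had 53.0, 69.6 and 74.6 CPM in EPZ5676 explants against 50.3, 62.1 and 55.8 CPM in control explants, also overlapping, at 0.23 ± 0.13. Ofd1, a centriole protein, and Ift122 of IFT-A were both at -0.01.

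**Figure D4:**
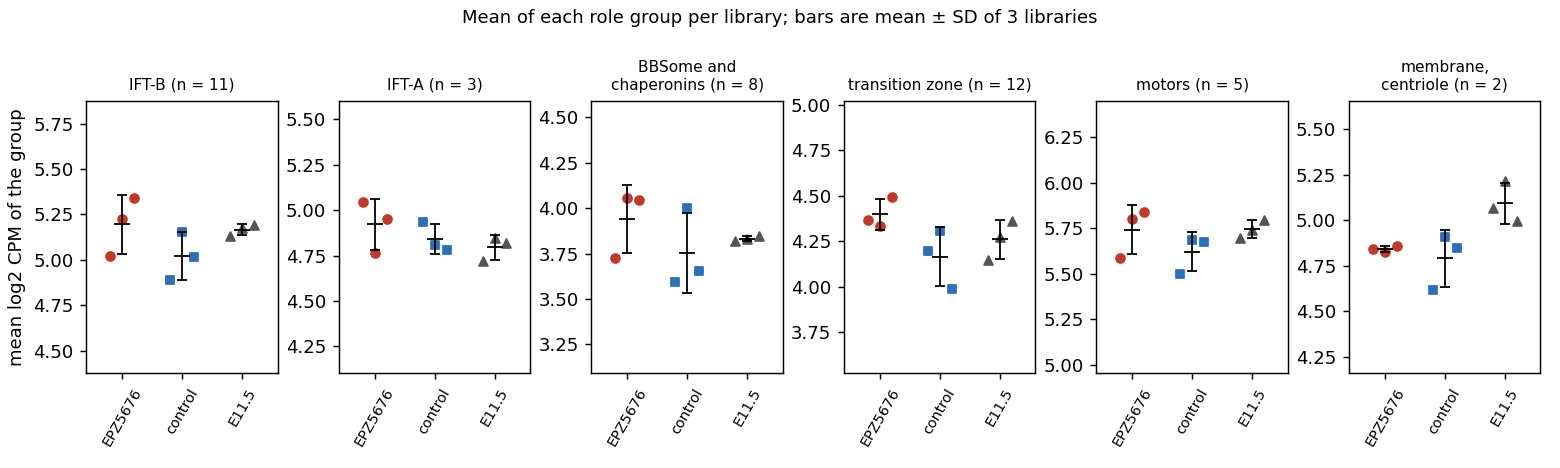
Mean log2 CPM of the genes of each role in each library, for EPZ5676 explants, control explants and E11.5 lung. The libraries of EPZ5676 and control explants overlap in every role but the transition zone, where the lowest EPZ5676 library is at 4.33 and the highest control library at 4.31. Black bars are the mean ± SD of 3 libraries.

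The intervals show which changes the data could have hidden. For 40 of the 41 genes the 95% interval of EPZ5676 against control stayed within 2-fold in either direction, the exception being Bbs10, and for 26 it stayed within 1.5-fold. A modest difference shared by these genes was therefore not detectable gene by gene at this depth and number of libraries.

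Markers of multiciliated cells moved in the same direction and much further. Of the 17 tested, 17 were above control in EPZ5676 explants, with a median log2 fold change of 2.35, although edgeR called 0 (15 at an unadjusted p under 0.05), DESeq2 called 9 and limma called 0. Over all genes 4.14% were higher at an unadjusted p under 0.05, and DESeq2 called 83. Their summed level was 150, 86.1 and 318 TPM in EPZ5676 explants against 54.2, 58.5 and 59.3 TPM in control explants, and 0 of the 18 in the tables were at 0 TPM in the EPZ5676 libraries against 1 or 2 in the controls. EPZ5676 3 was the highest library for these markers and for the 41 cilium genes. Whether the other EPZ5676 libraries stood in the same order depended on the scale. Mean log2 CPM of the markers was 2.81 in EPZ5676 1 and 2.23 in EPZ5676 2, and that of the 41 genes 4.64 and 4.75, the opposite order. Summed TPM of the markers was 150 and 86.1, and that of the 41 genes 877 and 861, the same order. Foxj1, the regulator of the motile cilium programme, had 20.8, 6.72 and 34.3 TPM in EPZ5676 explants against 1.79, 1.95 and 0.33 TPM in control explants (3.90 ± 0.67, edgeR adjusted p = 0.179, DESeq2 adjusted p = 0.00206). Their part in the small shift of the 41 genes was not tested.

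Culture itself was read from control explants against E11.5 lung. Here 3 of the 41 cilium genes passed the test (7.32%), against 37.7% of all genes, and against 38.3% of the 11508 genes whose mean TPM lay in the range of the cilium genes. All 3 fell in control explants, as 16.6% of all genes did: Ift74, Ift52 and Bbs12. None rose (edgeR; 0 were higher at an unadjusted p under 0.05), whereas 21.1% of all genes did; DESeq2 called 3 of the 41 in all and limma 2. The median absolute log2 fold change was 0.19 for the cilium genes and 0.38 for all genes, at median standard errors of 0.17 and 0.18, and 3 cilium genes (7.32%) moved by more than 0.5 on this scale, against 39.5% of all genes.

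**Figure D5:**
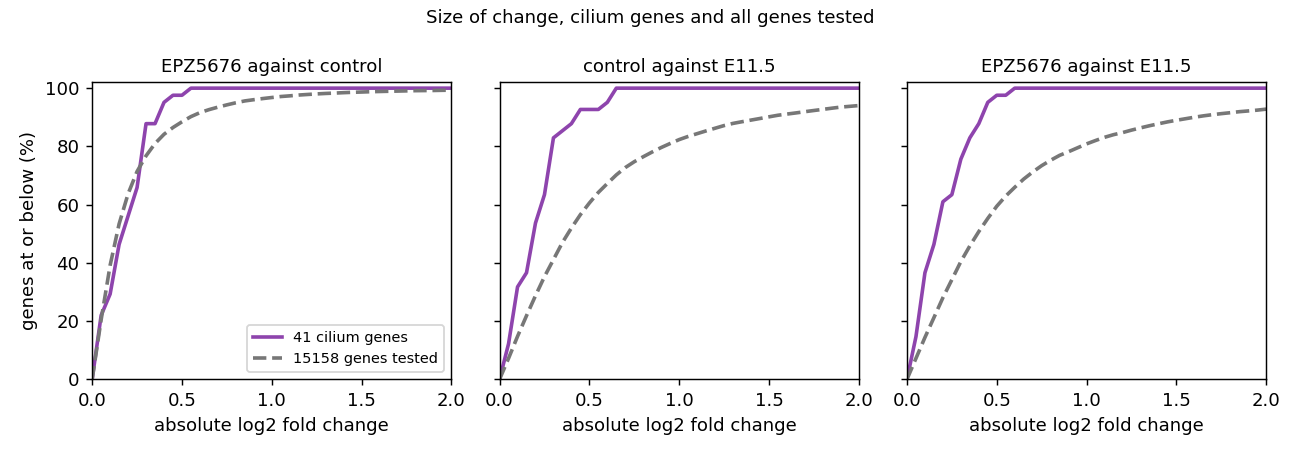
Cumulative share of genes, in percent, by absolute log2 fold change, for the 41 cilium genes and for all 15158 genes tested, in each comparison. In control against E11.5 and in EPZ5676 against E11.5 the curve of the cilium genes lies left of that of all genes, and in EPZ5676 against control the curves cross.

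Ift74, which forms the tubulin-binding pair of IFT-B with Ift81, had 35.2, 51.8 and 42.3 CPM in control explants against 60.8, 69.7 and 68.7 CPM in E11.5 lung. Every control library was below every E11.5 library, and the log2 fold change was -0.63 ± 0.18 (SE, edgeR adjusted p = 0.0197). Ift52 had 37.7, 36.1 and 28.9 CPM in control explants against 44.6, 48.4 and 43.2 CPM in E11.5 lung, again without overlap, at -0.40 ± 0.12 (edgeR adjusted p = 0.0213). Bbs12, a chaperonin-like protein needed to assemble the BBSome, had 14.2, 17.9 and 9.86 CPM in control explants against 23.9, 22.2 and 18.9 CPM in E11.5 lung, without overlap, at -0.63 ± 0.21 (edgeR adjusted p = 0.0336). Bbs12 shares exon bases with Cetn4 and Gm43439, and no source used here says whether strand was used in counting. Reads in the shared bases may therefore belong to those genes.

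Each of these calls was lost without some library. Ift74 missed the threshold without E11.5 2, E11.5 3 or Control 1, Ift52 without E11.5 2 or Control 3, and Bbs12 without E11.5 1, E11.5 2, Control 1 or Control 3, at adjusted p from 0.0524 to 0.102. Ift52 and Bbs12 also missed it with limma on log2(TPM + 1), at -0.42 and -0.65 (adjusted p = 0.0621 and 0.0611), and Bbs12 in a fit of only the 6 libraries compared (adjusted p = 0.0531). The log2 fold changes stayed below 0 in all of these, and the number of genes called lower was 0 without E11.5 2, 1 without Control 1 and 5 without Control 2. Without Control 1, Ift20 rose instead, at 0.59 (edgeR adjusted p = 0.0169).

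Of the 41, 26 were below 0, against 48.7% of all genes, and 15 above 0, against 51.3%, with a median of -0.13 against 0.02 over all genes. The median was -0.05 without Control 1 and -0.04 without Control 3, and -0.20 without Control 2. In 9 (22%) every control library lay below every E11.5 library, against 24.9% of all genes, and in 1 (2.44%) above, against 26.5%. Ift88, the IFT-B subunit whose loss stops cilium assembly in mice, was at -0.42 ± 0.17 (edgeR adjusted p = 0.0713), and limma on log2(TPM + 1) called it lower at -0.65 (adjusted p = 0.0242); it shares exon bases with Ift88os. Arl13b, a GTPase of the ciliary membrane, was at -0.28 ± 0.11 and Ofd1 at -0.33 ± 0.13 (edgeR adjusted p = 0.0734 and 0.0697); Ofd1 shares exon bases with Trappc2. Tmem67 at 0.00, Ift80 at 0.02 and Tctn1 at 0.03 had the smallest changes. Over the 41 genes the 95% interval stayed within 2-fold for 38.

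EPZ5676 explants were also set against E11.5 lung, a comparison that shares its libraries with both others. Only Bbs1 passed the test (2.44%), against 40% of all genes and 40.2% of those in the same range of TPM, and it rose, as 22.1% of all genes did. Bbs1, the BBSome subunit that binds the GTPase Arl6 at the membrane, had 19.0, 23.4 and 25.5 CPM in EPZ5676 explants and 15.9, 16.2 and 16.6 CPM in E11.5 lung. The groups did not overlap, and the log2 fold change was 0.47 ± 0.15 (SE, edgeR adjusted p = 0.0275). Control explants had 17.7, 22.2 and 20.0 CPM, also above every E11.5 library, at 0.29 ± 0.15 against E11.5 lung, which did not pass (edgeR adjusted p = 0.149).

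The Bbs1 call was lost without any of the 3 E11.5 libraries, without EPZ5676 2 or EPZ5676 3, and with the Xist level as a covariate, at adjusted p from 0.0596 to 0.116. Its log2 fold change was 0.49 with Xist, 0.45 to 0.48 without each E11.5 library, 0.45 without EPZ5676 2 and 0.37 without EPZ5676 3. None of the 41 fell (edgeR; 2 at an unadjusted p under 0.05), against 17.9% of all genes; DESeq2 called 1 gene in all and limma 2. The 2 were Ofd1, at -0.34 ± 0.13, and Kifap3, at -0.20 ± 0.08 (edgeR adjusted p = 0.0598 and 0.0636). The median was 0.07, with 23 genes above 0 (51.3% of all genes) and 18 below (48.7%), while it was -0.01 without EPZ5676 3, 0.00 without E11.5 2, 0.03 without E11.5 1, 0.11 without E11.5 3, 0.12 without EPZ5676 1 and 0.19 with Xist as a covariate. The median absolute log2 fold change was 0.17 against 0.39 over all genes. The smallest changes were those of Mks1 at -0.01, Dync2h1 at -0.02 and Cc2d2a, another transition zone gene, at -0.03. Groups did not overlap in 6 genes above (14.6%, against 29.9% of all genes) and in 6 below (14.6%, against 27.4%).

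A wider list of 81 other primary cilium genes, of which 80 were tested, was set beside the 41. It included 7 RFX and FOXJ1 regulators, among them Foxj1 of the motile cilium programme. In EPZ5676 against control explants edgeR called 0 of the 80, DESeq2 1, which was Foxj1, and limma 0. By edgeR 9 had an unadjusted p under 0.05, where 4.14% of all genes were higher and 2.8% lower. Of the 80, 54 were above 0, against 49.2% of all genes, with a median of 0.09. In control explants against E11.5 lung, 6 rose and 8 fell. In EPZ5676 explants against E11.5 lung 12 rose, among them Foxj1, Rfx2 and Rfx5, and 7 fell. The shares of all genes called in these comparisons were 37.7% and 40%.

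Of 7 genes that promote cilium disassembly, 2 fell in both culture groups by edgeR, where 16.6% of all genes fell in control and 17.9% in EPZ5676 explants. Kif2a, a kinesin that takes microtubules apart, was at -0.61 ± 0.09 in control explants and at -0.67 ± 0.09 in EPZ5676 explants against E11.5 lung (edgeR adjusted p = 5.6e-04 and 2.5e-04), and the mitotic kinase Aurka was at -0.56 ± 0.11 and -0.30 ± 0.11 (edgeR adjusted p = 0.00271 and 0.0463). Ccp110, which caps the mother centriole and holds back the cilium, was at -0.47 ± 0.11 in control explants and -0.31 ± 0.11 in EPZ5676 explants against E11.5 lung. Its partner Cep97 fell in control explants, at -0.38 ± 0.14 (edgeR adjusted p = 0.0472). They belong to a group of 19 basal body and ciliogenesis genes, of which edgeR called 2 lower in control explants, DESeq2 3 and limma 3, and Armc9 fell in EPZ5676 explants (-0.37 ± 0.12, edgeR adjusted p = 0.0309).

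Against E11.5 lung, 21.1% of all genes were called higher and 16.6% lower in control explants, and 22.1% and 17.9% in EPZ5676 explants. Of 12 genes of ciliary membrane traffic and signalling, edgeR called 3 higher and 1 lower in control explants, DESeq2 3 in all and limma 1. In EPZ5676 explants edgeR called 3 higher and 2 lower, DESeq2 4 in all and limma 1. In this group, Pkd1, the polycystin receptor of the cilium, rose by the same 0.71 ± 0.15 in control and EPZ5676 explants against E11.5 lung. Pde6d, which carries lipid-modified proteins to the cilium, rose by 0.53 ± 0.11 in control explants and 0.49 ± 0.11 in EPZ5676 explants, and the lipid phosphatase Inpp5e by 0.36 ± 0.12 in both. Rab23, a GTPase that restrains hedgehog signalling, fell by 0.37 ± 0.12 in both. Of 12 transition zone and related genes outside the 41, edgeR called 1 higher and 1 lower in control explants and 2 higher and 1 lower in EPZ5676 explants. B9d2 rose by 0.93 ± 0.27 in control explants and 1.20 ± 0.27 in EPZ5676 explants, and Iqcb1 fell by 0.55 ± 0.13 and 0.65 ± 0.13. The largest log2 fold change of this group in EPZ5676 explants, 1.38, was that of another gene. Of 5 other BBS genes edgeR called 0 in control and 1 higher in EPZ5676 explants, and of 9 other ciliary motors 1 higher in each. Of 10 other IFT subunits edgeR called 1 higher and 2 lower in control explants, and 2 higher and 0 lower in EPZ5676 explants. Ttc30a1 fell in control explants (-0.66 ± 0.17) while Ttc30b rose (0.79 ± 0.28). Ttc30a1 and Ttc30b are near-identical copies between which the counting divides reads, and both values are uncertain. Ttc26 also stood lower in control explants, at a mean of 23.1 ± 3.88 CPM against 32.4 ± 2.38 CPM in E11.5 lung (SD), without overlap.

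Of the RFX factors that bind the X-box, none passed in EPZ5676 against control explants (edgeR; Rfx5 alone had an unadjusted p under 0.05), nor by DESeq2 or limma. In EPZ5676 explants against E11.5 lung Rfx2 rose by 0.92 ± 0.25 (edgeR adjusted p = 0.0135) and Rfx5 by 0.39 ± 0.13 (edgeR adjusted p = 0.0393, DESeq2 adjusted p = 0.0524), while Rfx3 passed in no comparison. Foxj1 rose in the same comparison, at 6.13 ± 0.85 (edgeR adjusted p = 6.1e-04), with 0.09, 0.57 and 0.19 TPM in E11.5 lung, all below the lowest EPZ5676 library at 6.72 TPM. Of the 17 multiciliated markers, which include Foxj1, 15 rose in EPZ5676 explants against E11.5 lung, where 22.1% of all genes rose. In control explants against E11.5 lung 6 rose and 1 fell, where 21.1% of all genes rose and 16.6% fell.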

How the data were processed

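RNA-seq was analysed from 9 mouse lung samples in 3 groups of 3. The authors deposited expected counts per gene (estimates, not raw counts), of which 12.5% to 15.3% per library were not whole, and TPM, scaled by length and depth. RSEM, Bowtie2 and the build mm10 are named, without versions or roles, in the submitters' processing notes. All ID and symbol pairs matched the GENCODE M21 annotation of GRCm38, which is mm10.

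Expected counts were rounded, filtered with filterByExpr (minimum count 10, 15158 genes left) and scaled by TMM. A model of the 3 groups, with 6 residual degrees of freedom, was fitted to the 9 libraries in edgeR 4.0.16 (R 4.3.3, robust quasi-likelihood F test, two-sided, Benjamini-Hochberg over all genes, threshold 0.05). Standard errors were derived from F, 95% intervals from the t quantile, and log2 CPM used a prior count of 2. The fit was tested on simulated data. Alternatives were other scalings and filters, DESeq2 1.42.0, limma 3.58.1 on log2(TPM + 1) and log2(TPM + 0.1), a replicate block, Xist as a covariate, and leaving out each library. Members and lists were chosen with earlier results of these data known. Of the 41, the rule named genes that were called, the 8 with the smallest p where none was, the 3 highest and 3 lowest by mean TPM and the 3 smallest changes of a comparison, and from each other list up to 4 called genes. Not every called gene of the other lists is named. Ift88, Arl13b, Ofd1 and Kifap3 near the threshold, Ift20 and Rfx3 were added after their values were seen. No 2 libraries agreed within sampling noise. Counts limit precision, and intervals cover the spread between these libraries. Figures were drawn with matplotlib 3.10.9.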

Additional observations from a re-analysis of the deposited data

How the results depend on the processing

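Among single cilium genes no direction of a call reversed under any alternative, and 20 values lost and 19 gained a call over all settings. For EPZ5676 against control, every setting gave 0 calls in either direction, and the median log2 fold change ran from 0.10 to 0.25. For EPZ5676 against E11.5, the counts of 1 higher and 0 lower became 1 lower with RLE scaling, 2 higher and 3 lower with only the 6 libraries compared, 2 higher with limma at either pseudocount, and 0 higher with the Xist level as a covariate, which also gave a median of 0.19. The cause was not tested. Leaving out each library gave 0 to 1 higher, 0 to 5 lower and medians of -0.20 to -0.04 for control against E11.5, and 0 to 2 higher, 0 to 1 lower and medians of -0.01 to 0.12 for EPZ5676 against E11.5; an arm left with fewer libraries was assumed to vary like the others.

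Replicate numbers did not pair the samples throughout: correlations of same-numbered deviations were 0.46, 0.08 and -0.05 for EPZ5676 and control, 0.03, -0.01 and 0.02 for control and E11.5, and -0.10, -0.09 and 0.02 for EPZ5676 and E11.5, and not every library correlated best with its own number. EPZ5676 1 did so, at 0.46 with Control 1 against -0.25 and -0.22 with Control 2 and Control 3. Deviations within a group depend on each other, so the check cannot exclude a shared batch. With the replicate block, EPZ5676 against control had 0 calls in either direction and a median of 0.17, control against E11.5 had 4 lower and a median of -0.14, and EPZ5676 against E11.5 had 2 higher and 1 lower. With 3 libraries a group and the lowest gene at 24 counts, small shifts of single genes could not be seen.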
